A study of Mus musculus with 6 samples.

Results

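The miR-106b~25 cluster is a set of 3 miRNA hairpins, Mir106b, Mir93 and Mir25, that lie together in an intron of the gene Mcm7. Its members were chosen by name and not by a measured value, though earlier results of these data were known. They are both arms of each hairpin, which made 6 of the 1081 mature miRNA entries in the deposited table. All 6 members were found, and all 6 had a mean of at least 5 normalized reads over the libraries and so entered the test. The level of the cluster did not differ detectably between genotypes. The summed level of the 6 members was 9175 ± 609 normalized reads in controls against 8835 ± 679 in DicerAQP2Cre+ mice (SD, n = 3 libraries each), and 0 of 6 passed the test.

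Small RNA of the renal inner medulla, the deepest zone of the kidney, was sequenced from 3 control mice and 3 DicerAQP2Cre+ mice, all 1 month old. Per the series title, the DicerAQP2Cre+ animals lack Dicer1 in the cells that express the water channel AQP2, which are the principal cells of the collecting duct. The remaining cells of the tissue (endothelium, interstitium, loops of Henle, blood cells) keep the enzyme. The labels give neither the strain nor the alleles that the controls carry. Dicer mRNA is not read by this assay, so the deletion itself was not checked. In whole tissue, fewer cells of a type and less of a miRNA in each cell cannot be told apart.

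Mcm7 encodes a subunit of the MCM helicase that unwinds DNA at replication forks, and the cluster is transcribed with it, so it is known as a miRNA locus of dividing cells that E2F transcription factors drive. Drosha cuts the 3 hairpins from the primary transcript, Dicer removes each loop, and 1 strand of the resulting duplex, the guide, is kept by an Argonaute protein while the other, the passenger, is mostly lost. A guide finds its target mRNAs mainly through its seed, bases 2 to 8. miR-93 and miR-106b share a seed with miR-17 and miR-20a of the miR-17~92 cluster and are known to repress the cell-cycle inhibitor Cdkn1a (p21). miR-25 shares a seed with miR-92a and is known to repress the pro-apoptotic factor Bcl2l11 (Bim).

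In GRCm38 the 3 hairpins lie on the minus strand of chromosome 5 within 498 bases, chr5:138165321-138165818. They sit in intron 13 of the transcript Mcm7-201 (chr5:138165162-138165909, 748 bases, 15 exons). The shorter transcript Mcm7-202 starts inside that intron, and its exon 1 (chr5:138165052-138165716) contains Mir93 and Mir25 but not Mir106b. In the direction of transcription Mir106b comes first, Mir93 follows after 126 bases and Mir25 after a further 118. These positions are from RefSeq (GRCm38.p6) and GENCODE M21. The deposited table holds names only, and its processing notes name the build mm9.

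**Figure D1:**
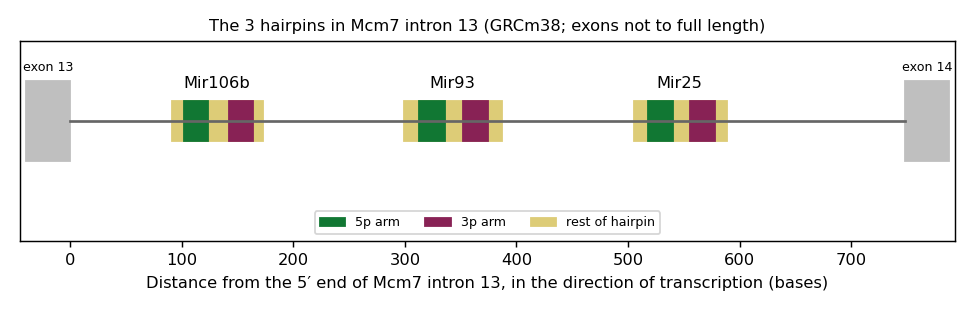
Map of the 3 hairpins along Mcm7 intron 13, drawn to scale by distance in bases from the intron's 5′ end, with both mature arms of each hairpin coloured. Mir106b, Mir93 and Mir25 lie 91, 299 and 505 bases from that end, and exons are shown as stubs.

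The hairpins are printed in full because each result below concerns 1 of their arms or the ratio between 2 of them. Capitals mark the mature arms, the 5p arm first.
Mir106b (chr5:138165737-138165818): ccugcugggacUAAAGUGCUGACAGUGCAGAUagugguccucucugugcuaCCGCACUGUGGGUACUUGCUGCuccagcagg
Mir93 (chr5:138165523-138165610): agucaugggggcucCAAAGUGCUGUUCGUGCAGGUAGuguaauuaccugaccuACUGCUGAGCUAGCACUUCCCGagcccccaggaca
Mir25 (chr5:138165321-138165404): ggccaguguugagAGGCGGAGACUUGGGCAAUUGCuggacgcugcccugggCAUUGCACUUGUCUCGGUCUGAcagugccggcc
The mature arms are 21 to 23 bases long, so read counts of the members differ little through length.

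The seeds divide the members. miR-106b-5p and miR-93-5p carry the seed AAAGUGC, miR-25-3p carries AUUGCAC, and each of the 3 remaining arms has a seed found in no other named mouse miRNA of the RefSeq table. Capitals below mark the seed, and the entries of the miR-17~92 cluster and miR-92b with the same seed are shown for comparison.
miR-93-5p: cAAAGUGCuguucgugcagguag
miR-106b-5p: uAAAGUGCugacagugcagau
miR-17-5p: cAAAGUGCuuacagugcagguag
miR-20a-5p: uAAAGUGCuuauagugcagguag
miR-25-3p: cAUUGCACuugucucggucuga
miR-92a-3p: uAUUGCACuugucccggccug
miR-92b-3p: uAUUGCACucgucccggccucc
miR-106b-3p: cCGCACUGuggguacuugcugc
miR-93-3p: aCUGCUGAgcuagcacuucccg
miR-25-5p: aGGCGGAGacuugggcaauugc
Set base against base from the 5′ end without gaps, miR-93-5p is identical to miR-106b-5p at 16 of 21 positions and to miR-17-5p at 19 of 23. miR-25-3p is identical to miR-92a-3p at 18 of 21 positions and to miR-92b-3p at 16 of 22. No 2 of these entries have the same full sequence.

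Values are normalized read counts, that is, the reads of a mature miRNA after division by the size factor of its library. Recovered reads ranged from 2934851 to 7614853 per library. The 6 members took between 0.145% and 0.198% of them, or 4326 to 13002 reads per library. As a share of all reads the cluster stood at 0.186 ± 0.0199% in controls and 0.154 ± 0.0144% in DicerAQP2Cre+ samples (n = 3, exact two-sided permutation p = 0.2). This share also moves with the levels of the miRNAs that hold most of the reads. DicerAQP2Cre+ replicate 2 was the shallowest library and gives the widest counting error.

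The most abundant member was mmu-miR-93-5p, ranked 53 of 1081 entries by mean. Its normalized counts were 4820, 5425 and 4662 in controls (replicates 1 to 3 in this order, as throughout) and 5276, 4642 and 4093 with DicerAQP2Cre+. The 2 groups overlapped, with both the second highest and the lowest value in DicerAQP2Cre+ libraries. mmu-miR-25-3p, ranked 64, stood at 2956, 3437 and 3929 in controls and at 3278, 2822 and 3519 in DicerAQP2Cre+ samples. Here too the groups overlapped. In controls these 2 arms made up 54.2 ± 3.82% and 37.4 ± 3.96% of the cluster's reads, so that the AAAGUGC and AUUGCAC seeds of the cluster are carried almost wholly by miR-93-5p and miR-25-3p.

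The miR-106b hairpin, first in the transcript, was the least abundant by its reads, and its more abundant arm was the 3p arm. The normalized counts of mmu-miR-106b-3p were 478, 553 and 563 in controls and 769, 784 and 576 in DicerAQP2Cre+ samples. The groups did not overlap, but DicerAQP2Cre+ replicate 3 exceeded the highest control by 576 against 563 only. mmu-miR-106b-5p, the arm with the AAAGUGC seed, stood at 109, 99.0 and 81.3 in controls and at 144, 116 and 71.5 in DicerAQP2Cre+ samples. DicerAQP2Cre+ replicates 1 and 2 lay above all controls and replicate 3 below all of them.

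The scarcer arms of the other hairpins were mmu-miR-25-5p and mmu-miR-93-3p. mmu-miR-25-5p stood at 70.0, 94.3 and 82.3 in controls and at 99.9, 68.6 and 112 in DicerAQP2Cre+ samples. mmu-miR-93-3p stood at 61.5, 64.5 and 38.7 in controls and at 51.0, 45.1 and 37.8 in DicerAQP2Cre+ samples. Groups overlapped for both. They rest on few reads: miR-93-3p had 23 to 82 per library, and counting alone gives a relative error of 12.2% at its mean control depth and 15.2% at its mean DicerAQP2Cre+ depth. The spread over control libraries was 25.7% for that arm, against 8.10% for miR-93-5p, whose counting error was 1.29%.

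**Figure D2:**
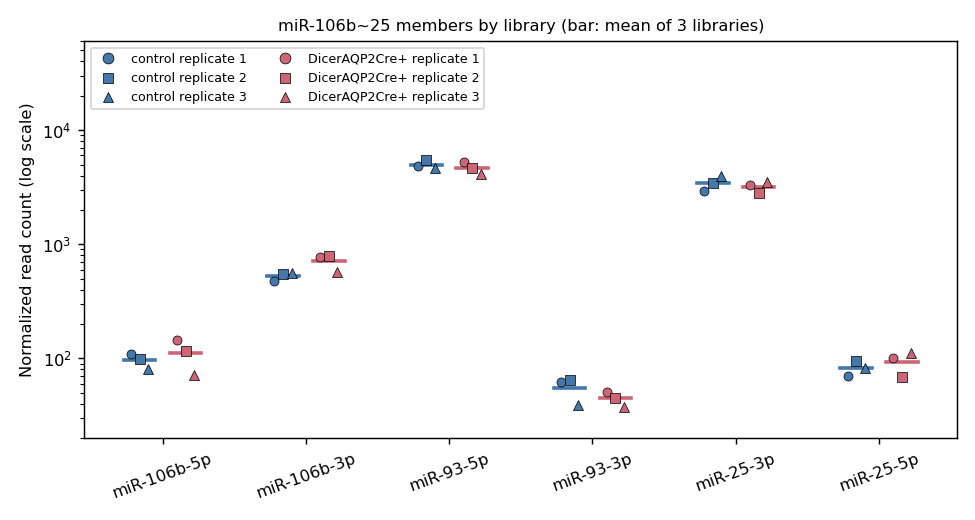
Normalized read counts of the 6 members (log axis) in each of the 3 control and 3 DicerAQP2Cre+ libraries, with bars for group means. miR-93-5p and miR-25-3p are the highest in all 6 libraries, miR-106b-3p lies between 478 and 784, and in 5 of 6 members the groups overlap.

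Whether loss of Dicer1 in AQP2-expressing cells changes these miRNAs in the tissue was asked of all members at once. In limma, fitted on log2(value + 1) of all 461 entries that passed the filter, 0 of 6 members were called (Benjamini-Hochberg adjusted p under 0.05), where 8.46% of all tested entries were called. An unadjusted p under 0.05 was likewise seen for 0 of 6 members. edgeR and DESeq2 on the recovered reads each called 0 of 6, and neither gave any member an unadjusted p under 0.05. Non-overlapping groups were seen in 1 of 6 members, miR-106b-3p, and in 33.6% of all tested entries. The members' median log2 fold change was 0.03, against -0.01 over all tested entries.

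The intervals show what size of change the 6 libraries could still hold. For miR-93-5p the log2 fold change was -0.09 ± 0.19 (SE; adjusted p in limma 0.782), with a 95% interval from -0.52 to 0.33, which is 0.700-fold to 1.25-fold. miR-25-3p had -0.10 ± 0.20 (adjusted p = 0.782), with an interval from -0.54 to 0.34. The difference of miR-106b-3p was 0.41 ± 0.22 (adjusted p = 0.251), and its interval reached from -0.08 to 0.89, or 0.948-fold to 1.85-fold. Without DicerAQP2Cre+ replicate 3 the estimate for this arm was 0.55 (adjusted p = 0.0537 in limma), and over all 16 alternatives its adjusted p lay between 0.0537 and 0.627. The 3 low arms had wider intervals: miR-106b-5p from -0.52 to 0.82, miR-25-5p from -0.45 to 0.78 and miR-93-3p from -0.93 to 0.40. The intervals of all members include 0, so the sign is settled for none of them. The estimates for miR-106b-5p (0.15) and miR-25-5p (0.17) turned to -0.06 and -0.04 with libraries set to equal totals. This scaling lowered the median of all tested entries to -0.21.

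The 6 members summed to between 8496 and 9672 in controls and between 8409 and 9618 in DicerAQP2Cre+ samples. On the log2 scale the total differed by -0.06 (exact two-sided permutation p = 0.5; 3 against 3 libraries cannot give a p below 0.1). With equal totals the difference was -0.27.

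Ratios within a library do not depend on library scaling, and show which strand of each duplex was recovered. Within the miR-93 duplex the 5p arm exceeded the 3p arm by 78.3-fold, 84.2-fold and 120-fold in controls and by 103-fold, 103-fold and 108-fold in DicerAQP2Cre+ samples. For miR-25 the excess was on the other arm, with 42.2, 36.4 and 47.8 reads of 3p per read of 5p in controls and 32.8, 41.1 and 31.3 in DicerAQP2Cre+ samples. The miR-106b duplex was far less one-sided: the 3p arm exceeded the 5p arm by 4.38-fold, 5.58-fold and 6.93-fold in controls and by 5.33-fold, 6.78-fold and 8.06-fold in DicerAQP2Cre+ samples. Among the 112 hairpins with both arms tested, 57 had more 3p than 5p reads on average. Read counts are not corrected for how well each sequence is ligated or copied, so ratios between 2 sequences are ratios of reads.

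No difference between genotypes was detected for any of the 3 arm ratios. The log2 differences were 0.18 for miR-93-5p over its 3p arm (exact two-sided permutation p = 0.4), -0.27 for miR-25-3p over its 5p arm (exact p = 0.2) and -0.26 for miR-106b-5p over its 3p arm (exact p = 0.5), each with an adjusted p of 0.5 over the 3 hairpins. A limma fit of the log2 arm ratio over all 112 hairpins, chosen after the data were seen, called 0% of hairpins (0 of 112, with 18 at an unadjusted p under 0.05). Its 95% intervals for 5p over 3p were -0.66 to 1.01 for miR-93, -0.57 to 1.10 for miR-25 and -1.12 to 0.60 for miR-106b.

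The 3 hairpins are cut from the same primary transcript, and were compared by miR-93-5p, miR-25-3p and miR-106b-5p, the arms with the AAAGUGC or AUUGCAC seed. For miR-106b this is the scarcer arm in all 6 libraries. The 3 arms kept an order but not a fixed proportion. miR-93-5p exceeded miR-25-3p in all 6 libraries, by 1.63-fold, 1.58-fold and 1.19-fold in controls and by 1.61-fold, 1.65-fold and 1.16-fold in DicerAQP2Cre+ samples. The means were 1.47 ± 0.243 and 1.47 ± 0.269 (exact p = 1). The ratio of miR-25-3p to miR-106b-5p moved more between animals, at 27.1, 34.7 and 48.3 in controls and 22.7, 24.4 and 49.2 in DicerAQP2Cre+ samples. Control replicate 3 and DicerAQP2Cre+ replicate 3 thus had the highest values of their groups. The log2 difference between genotypes was -0.24 for this ratio (exact p = 0.6) and -0.24 for miR-93-5p over miR-106b-5p (exact p = 0.3), with an adjusted p of 0.9 for each over 3 pairs.

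**Figure D3:**
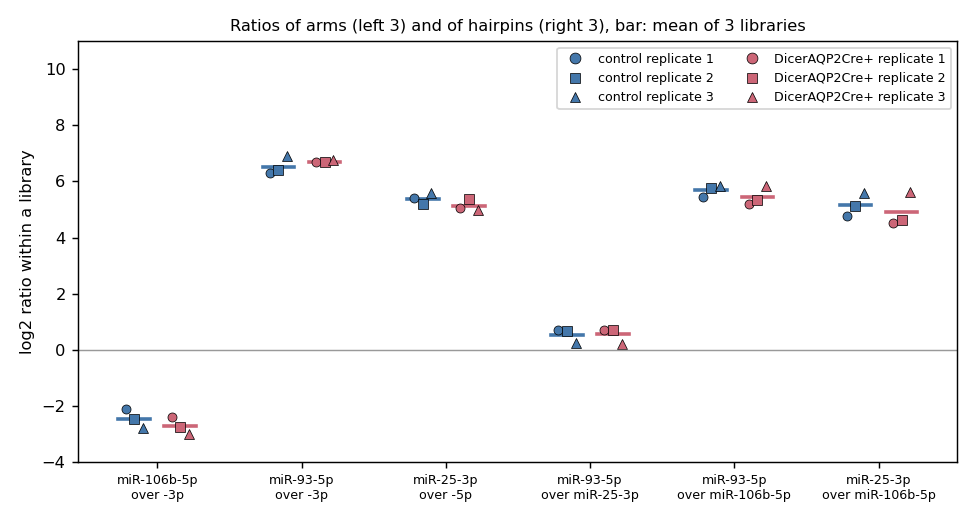
Log2 ratios within each library for the 2 arms of each hairpin (left 3) and for pairs of miR-93-5p, miR-25-3p and miR-106b-5p (right 3), as points by library with bars for group means. Only miR-106b-5p over its 3p arm lies below 0, and control and DicerAQP2Cre+ libraries overlap in all 6 ratios.

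By share of the cluster, a measure examined after the values were seen, miR-106b-3p was the member whose groups did not overlap. It held 5.63%, 5.71% and 6.02% of the cluster's reads in controls and 7.999%, 9.25% and 6.85% in DicerAQP2Cre+ samples. Its mean share was 2.24 percentage points higher in DicerAQP2Cre+ samples, with an exact permutation p of 0.1 (no smaller value is possible here) and 0.5 after adjustment over 6 members. The shares of miR-93-5p (54.2 ± 3.82% and 52.8 ± 3.54%) and miR-25-3p (37.4 ± 3.96% and 36.4 ± 4.73%) differed by less than their SD.

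The seed families place the cluster beside its relatives at other loci. Reads with the AAAGUGC seed came mostly from this cluster: miR-93-5p and miR-106b-5p supplied 93.5%, 93.5% and 93.2% of them in controls and 95.4%, 94.6% and 97.1% in DicerAQP2Cre+ samples. All 3 DicerAQP2Cre+ libraries lay above all controls, and the means were 2.302 percentage points apart. The exact two-sided permutation p was 0.1, the smallest possible here, and 0.1 after adjustment over 2 seeds. Among single entries, 33.6% of all tested had groups without overlap. The remainder came from miR-17-5p and miR-20a-5p, while miR-20b-5p and miR-106a-5p, of another related cluster on the X chromosome, had means under 5 normalized reads. Entries with this seed outside the cluster summed to 359 ± 22.7 in controls against 220 ± 83.0 in DicerAQP2Cre+ samples, with 125 in DicerAQP2Cre+ replicate 3.

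The AUUGCAC seed gave the opposite picture. miR-25-3p supplied 1.51%, 1.38% and 1.51% of its reads in controls and 1.70%, 2.10% and 2.47% in DicerAQP2Cre+ samples, again with no overlap. The difference was 0.62 percentage points (exact permutation p = 0.1, again the smallest possible, adjusted 0.1 over 2 seeds). The bulk of this family was miR-92a-3p, at 218018 ± 33787 and 142128 ± 29133 normalized reads, and miR-92b-3p, at 13915 ± 1596 and 11348 ± 2454. Neither passed in limma, with log2 fold changes of -0.62 (adjusted p = 0.0918) for miR-92a-3p and -0.31 (adjusted p = 0.357) for miR-92b-3p. miR-363-3p and miR-32-5p had means under 6 normalized reads in both groups.

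**Figure D4:**
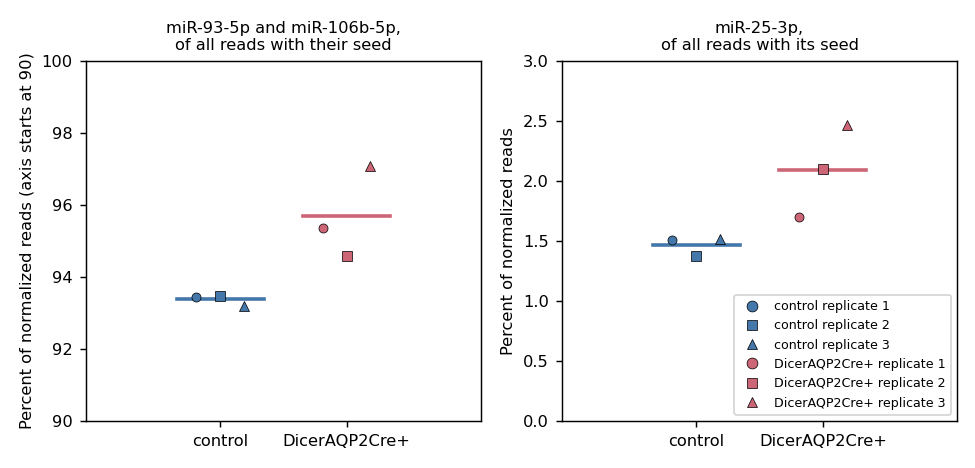
Percent of normalized reads with the AAAGUGC seed that were miR-93-5p or miR-106b-5p (left, axis from 90) and with the AUUGCAC seed that were miR-25-3p (right, axis from 0), by library with bars for group means. In both panels the 3 DicerAQP2Cre+ libraries lie above the 3 controls, at 94.6% to 97.1% and at 1.70% to 2.47%.

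The miR-17~92 cluster on chromosome 14, a relative with the same seeds that is known to promote proliferation, had 8 of its 12 listed arms tested and 0 called in either direction. Of these 8, 6 had a log2 fold change below 0, with a median of -0.42, against 3 of 6 and 0.03 for miR-106b~25 and 233 of 461 and -0.01 over all tested entries. miR-17-5p stood at 235, 303 and 269 in controls and at 214, 178 and 83.8 in DicerAQP2Cre+ samples (log2 fold change -0.86 ± 0.34 in limma, adjusted p = 0.133). miR-20a-5p had -0.67 ± 0.33 (adjusted p = 0.216), while its neighbour miR-18a-3p had 0.05 ± 0.31 (adjusted p = 0.928). Within a library the summed miR-17~92 arms exceeded miR-106b~25 by 23.7-fold in controls and 15.99-fold in DicerAQP2Cre+ samples (geometric means).

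The log2 ratio of miR-106b~25 over miR-17~92 was -4.40, -4.60 and -4.69 in controls and -4.20, -3.86 and -3.94 in DicerAQP2Cre+ samples. It was thus 0.57 higher in DicerAQP2Cre+ samples, with no overlap (exact permutation p = 0.1, two-sided, the smallest possible). The ratio was carried by 1 miRNA, since miR-92a-3p made up 99.6 ± 0.0343% of the summed miR-17~92 arms in controls. Without miR-92a-3p and miR-19b-3p, whose sequences are also encoded on the X chromosome, the difference was 0.17 (exact p = 0.1).

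**Figure D5:**
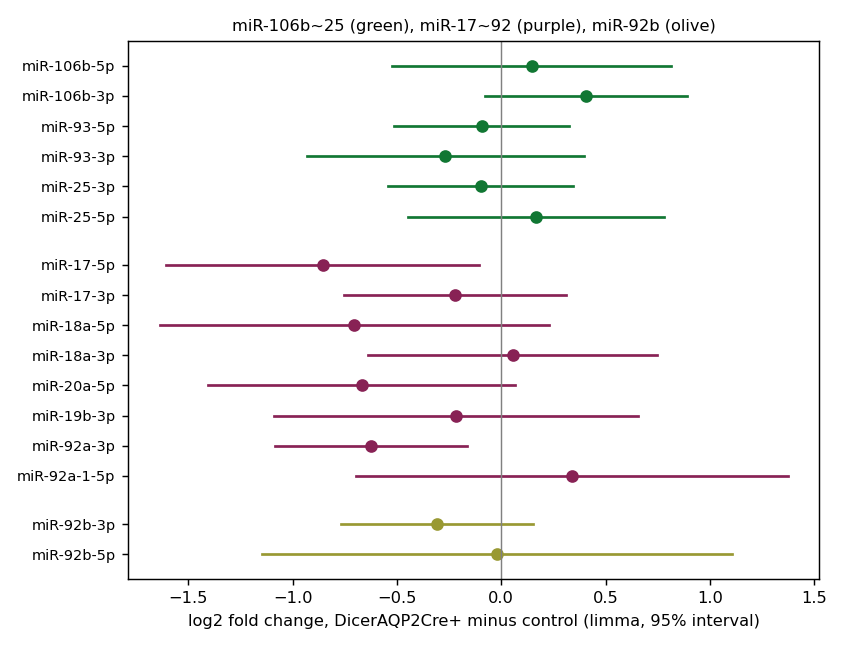
Log2 fold changes with 95% intervals from limma for the 6 members of miR-106b~25, the 8 tested arms of miR-17~92 and both arms of miR-92b. Intervals of all 6 members include 0, and point estimates run from -0.27 to 0.41 in this cluster and from -0.86 to 0.34 in miR-17~92.

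Other miRNAs described as driven by E2F factors are miR-15b and miR-16, from an intron of the condensin gene Smc4 (miR-16 also from another locus), and miR-449. Of 6 listed entries 3 were tested and 0 were called. Their log2 fold changes in limma were 0.74 ± 0.30 for miR-15b-5p (adjusted p = 0.135), -0.71 ± 0.24 for miR-16-5p (adjusted p = 0.0918) and 1.83 ± 0.81 for miR-449c-5p (adjusted p = 0.169). The 2 miR-15b and miR-16 entries thus had estimates of opposite sign. The estimate for miR-449c-5p rests on 34 reads over all 6 libraries. Control libraries gave 2.31, 0 and 3.87, and DicerAQP2Cre+ libraries 11.8, 17.6 and 2.04, so the groups overlapped. Its control mean of 2.06 was under the filter of 5, and only its DicerAQP2Cre+ mean of 10.5 exceeded it.

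By level, the neighbours of miR-93-5p, miR-25-3p and miR-106b-5p were within the spread of the libraries. miR-93-5p (4820 ± 481 over all 6 libraries) stood between miR-151-5p (5016 ± 1063) and miR-30c-2-3p (4770 ± 1095). miR-25-3p (3323 ± 402) stood between miR-26b-5p (3399 ± 1144) and miR-30a-3p (3309 ± 1039). miR-106b-5p (103 ± 26.0) stood between miR-5122 (105 ± 53.2) and miR-411-5p (103 ± 38.2).

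By pattern over the 6 libraries, measured as the Pearson correlation of log2(value + 1) and given as a description, miR-106b-5p was most like miR-324-5p (r = 0.982), miR-139-5p (0.970) and miR-574-3p (0.966). miR-93-5p was most like miR-335-3p (r = 0.951), miR-330-3p (0.914) and miR-6944-3p (0.914). The pattern nearest to miR-25-3p was that of the joined entry miR-486a-5p and miR-486b-5p (r = 0.914), followed by miR-128-3p (0.874) and miR-1964-3p (0.869). The joined entry is listed below as an erythroid marker, but averaged 108634 in controls, where miR-451a, another such marker, averaged 23.8. The highest correlations were picked out of all tested entries outside the cluster, so they carry no test.

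Markers of the cell types in the tissue were measured in the same fit. Of 7 epithelial markers, the miR-200 family and 2 miR-30 guides, 6 were called lower and 0 higher, where 8.46% of all tested entries were called. All 7 had a log2 fold change below 0, and miR-30a-5p, at -0.80, was not called (adjusted p = 0.118 in limma). The summed level of these markers ranged from 285443 to 315298 in controls against 107881 to 217977 in DicerAQP2Cre+ samples. miR-200b-3p, which represses Zeb1 and Zeb2 in epithelium, fell by 1.10 on the log2 scale, with a 95% interval from -1.66 to -0.54 (adjusted p = 0.0188 in limma). The intervals of miR-93-5p and miR-25-3p reached down to -0.515 and -0.541. Those of miR-30a-5p, miR-200c-3p and miR-200a-3p reached up to -0.14, -0.45 and -0.51 and so overlapped them. The intervals of miR-200b-3p, miR-30d-5p, miR-141-3p and miR-429-3p ended lower and did not overlap them, at -0.543, -0.637, -0.697 and -0.761. Whether the cluster changed less than these markers was not tested. Of 4 stromal markers 2 were called higher and 0 had a log2 fold change below 0, with sums of 23139 to 24331 and 27498 to 39621. Those not called were miR-143-3p, at 0.31 (adjusted p = 0.315 in limma), and the joined entry miR-199a-3p and miR-199b-3p, at 0.71 (adjusted p = 0.0915).

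Among markers of blood and vessels 0 of 2 tested erythroid, 0 of 4 tested leukocyte and 0 of 2 endothelial entries were called. With 8.46% of all tested entries called, counts this small do not show that these markers were unchanged. The leukocyte entry miR-155-5p had -1.47 on the log2 scale (adjusted p = 0.0512 in limma), with no overlap between groups. It was the only 1 of 4 tested leukocyte entries below 0, and miR-223-3p had 1.17 (adjusted p = 0.185 in limma). Erythroid sums ranged from 84625 to 147220 in controls and from 66039 to 98714 in DicerAQP2Cre+ samples, nearly all from miR-486, while miR-451a stood at 23.8 ± 7.23 and 18.7 ± 7.07. Leukocyte sums ranged from 12703 to 35681 and from 16034 to 38511, nearly all from miR-150-5p, and the defining leukocyte miRNA miR-142a-3p was listed at 0 in 5 of 6 libraries. The other arm of its hairpin, miR-142a-5p, had reads in all 6 libraries, at 4.90 ± 3.11 in controls and 7.41 ± 7.73 in DicerAQP2Cre+ samples. Of 2 tested cortical tubule markers 1 was called, miR-194-5p, which fell by 1.43 on the log2 scale (adjusted p = 0.0196 in limma). The other, miR-192-5p, had -0.54 (adjusted p = 0.235 in limma), and its groups overlapped. The part of these cell types in the levels of miR-106b~25 was not tested.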

How the data were processed

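Mature miRNAs of the inner medulla were measured in 3 control and 3 DicerAQP2Cre+ libraries. The labels' protocols name the RNeasy Micro Kit for RNA extraction and, from 1 µg, a TruSeq small-RNA library. The deposited signal values are normalized read counts. In every column all values (100%) were whole multiples of the smallest non-zero value within 0.01 read, so reads were recovered by division. Per the submitters' processing notes FastQC 0.11.3, DESeq2 and mm9 were used; aligner, counter and miRNA annotation: not given in the sources used here. Columns CK01 to CK03 were read as DicerAQP2Cre+ replicates 1 to 3, an inference from their names on which every direction rests.

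limma 3.58.1 (R 4.3.3, mean-variance trend, no replicate block) was run on log2(value + 1) of the 461 entries with a mean of at least 5, two-sided, with Benjamini-Hochberg adjustment and a threshold of 0.05. This scale understates changes of low entries. edgeR 4.0.16 and DESeq2 1.42.0 on recovered reads were alternatives. For sums, shares and ratios exact permutation tests (two-sided) were used, with a smallest p of 0.1. Cluster shares and the arm-ratio fit over all hairpins were added after the data were seen. Code was tested on simulated data. Nothing says whether the libraries differ in batch. Counting errors ignore PCR copies.

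Members, lists and tests were chosen with earlier results of these data known. Named miRNAs are the 6 members, the miR-17~92, miR-106a~363, same-seed and E2F lists, cell type markers, and for miR-93-5p, miR-25-3p and miR-106b-5p the 3 entries of highest correlation and the 2 nearest in level. Of 1081 entries, 916 matched a RefSeq mature sequence by name. Same-numbered libraries did not deviate together (correlations -0.06, 0.01 and 0.06), so they were not paired.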

Additional observations from a re-analysis of the deposited data

How the results depend on the processing

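Against 0 members called, the count was 0 in each of 16 alternatives: other pseudocounts and filters, no trend, equal totals, TMM factors, edgeR, DESeq2, the replicate block, and each library left out. Without control replicate 2 the fit called 0 of all 463 entries, and without control replicate 3 it called 0 of 459. The count of 0 members was therefore fixed in those fits. Without DicerAQP2Cre+ replicate 3 it called 62 lower and 43 higher of 457 entries. miR-93-3p fell below the mean filter of 50, which left 5 members tested. With the replicate block in limma miR-106b-3p had an adjusted p of 0.299 and 0 members were called. Over all 461 entries the block called 18 lower and 14 higher, against 23 and 16 without it, and same-numbered libraries did not correlate (-0.06, 0.01 and 0.06). Sign flips within pairs gave the cluster total an exact p of 0.75, where 0.25 is the smallest possible.

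Signs turned where estimates were near 0. With equal totals miR-106b-5p stood at -0.064 and miR-25-5p at -0.044 (log2 fold change). Leaving out 1 library at a time, log2 fold changes ranged from -0.074 to 0.427 for miR-106b-5p and from -0.203 to 0.0024 for miR-25-3p, and the log2 difference of miR-93-5p over miR-25-3p ranged from -0.141 to 0.166. Differences in share of the cluster ranged in the same way from -3.65 to 0.591 percentage points for miR-93-5p and from -3.76 to 1.24 for miR-25-3p, and from 1.64 to 2.83 for miR-106b-3p, which stayed above 0. Both seed shares and the ratio to miR-17~92 also stayed above 0 without any 1 library, at 1.59 to 2.85 and 0.43 to 0.82 percentage points and 0.50 to 0.67 on the log2 scale. With 2 against 3 libraries no exact p can fall below 0.1. Counting error limits miR-93-3p, miR-25-5p and miR-106b-5p most, which had 23, 35 and 59 reads in the shallowest library.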
